A study of Mus musculus and Homo sapiens with 14 samples.

Results

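EG7-OVA cells, a mouse T cell lymphoma line derived from EL4 and engineered to express chicken ovalbumin, were treated with decitabine or with the solvent DMSO, and the RNA of all genes was compared between the 2 groups. The comparison uses 4 of the 14 samples of the series: 2 DMSO libraries and 2 decitabine libraries, chosen by their treatment label and not by any measured value. Decitabine was given at 0.2 µM at 0, 24 and 48 h, DMSO at the same times, and cells from both groups were collected at 72 h. Another set of 2 libraries, azacytidine at 1.5 µM on the same schedule, entered the model fit and is shown beside some results. All 6 libraries are labelled wild type and come from the same cell line; whether the 2 libraries of a group came from separate cultures is not stated, so the p-values measure only the spread between these libraries, which may be technical. The ovalbumin transgene was not analysed here.

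Decitabine is a deoxycytidine analogue that is phosphorylated inside the cell and built into DNA during replication. There it traps DNMT1, the maintenance methyltransferase that copies CpG methylation onto the new strand, so that methylation is lost as cells divide. Genes whose CpG-rich promoters are kept silent by methylation, above all germ cell genes, imprinted genes and cancer-testis genes, are known to come on in such cells. The loss of methylation can also let endogenous retroviral RNA form double strands that the cytosolic sensors RIG-I and MDA5 read as viral, which starts an interferon response, and the trapped enzyme damages DNA. The title of the series names this viral mimicry.

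Promoters of some genes of these classes are shown first, because CpG methylation is what the drug removes. Methylation itself was not measured in these libraries. Only Xist and Vmn2r96 were picked by the rule for showing promoters, and the others were added after their values were seen. The rule also picked Col1a2 (11 CG), Atp13a5 (1 CG) and Cntn5 (24 and 26 CG at its 2 starts), which are not shown. Each run is the 250 bases before the transcription start in RefSeq, mouse build GRCm38.p6, 5′ to 3′ on the strand of the gene, with every CG dinucleotide in capitals. The first 3 belong to germ cell genes, with 20, 18 and 14 CG: Dazl (chr17:50293621-50293870, minus strand), an RNA-binding protein of germ cells; Slc25a31 (chr3:40708621-40708870, plus strand), a testis ADP/ATP carrier; and Tuba3b (chr6:145615713-145615962, plus strand), a testis alpha-tubulin.
Dazl: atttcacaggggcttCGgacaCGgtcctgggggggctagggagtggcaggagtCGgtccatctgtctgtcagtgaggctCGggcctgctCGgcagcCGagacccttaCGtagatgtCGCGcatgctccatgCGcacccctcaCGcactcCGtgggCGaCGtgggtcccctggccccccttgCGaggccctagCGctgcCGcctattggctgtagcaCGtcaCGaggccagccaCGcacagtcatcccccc
Slc25a31: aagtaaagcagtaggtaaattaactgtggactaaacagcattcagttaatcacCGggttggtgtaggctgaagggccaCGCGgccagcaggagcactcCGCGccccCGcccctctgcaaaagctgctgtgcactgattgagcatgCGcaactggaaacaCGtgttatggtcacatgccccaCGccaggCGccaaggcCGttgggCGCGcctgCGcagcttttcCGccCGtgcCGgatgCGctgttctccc
Tuba3b: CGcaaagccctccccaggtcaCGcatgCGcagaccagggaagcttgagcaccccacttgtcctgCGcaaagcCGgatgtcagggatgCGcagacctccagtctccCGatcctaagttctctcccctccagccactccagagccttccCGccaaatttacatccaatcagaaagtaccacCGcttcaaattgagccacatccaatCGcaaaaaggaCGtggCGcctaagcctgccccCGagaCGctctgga
The next are Plagl1 (chr10:13090582-13090831, plus strand), an imprinted zinc-finger gene with 19 CG, Xist (chrX:103483234-103483483, minus strand), the non-coding RNA of X inactivation with 11 CG, and Vmn2r96 (chr17:18581477-18581726, plus strand), a pheromone receptor gene with 1 CG.
Plagl1: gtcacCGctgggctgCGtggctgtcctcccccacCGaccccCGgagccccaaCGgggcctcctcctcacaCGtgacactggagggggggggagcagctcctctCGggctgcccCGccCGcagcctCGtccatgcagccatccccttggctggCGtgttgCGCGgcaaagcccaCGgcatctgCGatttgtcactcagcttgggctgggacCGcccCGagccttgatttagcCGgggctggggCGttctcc
Xist: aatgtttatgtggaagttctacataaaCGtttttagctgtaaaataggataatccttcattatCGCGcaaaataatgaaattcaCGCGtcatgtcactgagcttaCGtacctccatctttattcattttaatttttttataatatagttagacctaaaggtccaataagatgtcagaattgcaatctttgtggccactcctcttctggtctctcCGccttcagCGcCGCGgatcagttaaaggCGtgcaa
Vmn2r96: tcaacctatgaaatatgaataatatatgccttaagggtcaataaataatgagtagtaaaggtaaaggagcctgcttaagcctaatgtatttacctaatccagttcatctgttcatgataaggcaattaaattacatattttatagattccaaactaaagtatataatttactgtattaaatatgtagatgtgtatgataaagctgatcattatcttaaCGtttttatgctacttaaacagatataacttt
The last belong to interferon-inducible GTPases: Igtp (chr11:58199306-58199555, plus strand) with 8 CG and Gbp2 (chr3:142620413-142620662, plus strand) with 1 CG.
Igtp: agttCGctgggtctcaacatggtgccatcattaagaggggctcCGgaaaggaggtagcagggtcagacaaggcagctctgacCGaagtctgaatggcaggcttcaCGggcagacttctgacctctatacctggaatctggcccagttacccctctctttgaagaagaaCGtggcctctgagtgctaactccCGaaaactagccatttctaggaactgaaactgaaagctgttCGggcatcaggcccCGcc
Gbp2: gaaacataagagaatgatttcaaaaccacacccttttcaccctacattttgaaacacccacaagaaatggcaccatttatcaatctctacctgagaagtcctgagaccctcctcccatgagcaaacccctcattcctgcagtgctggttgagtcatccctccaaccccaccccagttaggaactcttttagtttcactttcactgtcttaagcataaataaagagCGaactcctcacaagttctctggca

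Among these 8 windows, only those of Igtp and Gbp2 hold the core of the interferon-stimulated response element, GAAANNGAA on either strand, once each. Of all 32851 promoters of 300 bases in the table, 8.56% hold it, while the windows are shorter, at 250 bases. Igtp and Gbp2 were added after their values were seen, and the share among interferon-stimulated genes was not counted. Windows of Cdkn1a, Peg3, Taf7l and Tex101, also added but not shown, do not hold the core. The promoters of the germ cell genes that passed the test below were looked at in the same way, over 300 bases that include 50 after the start. Of 22 such genes 18 had a promoter in the table, and their CG counts ran from 10 to 32 with a median of 18. The median was 20 over all tested genes with a promoter and 21.5 over 8 germ cell genes that did not pass. For 11 X-linked cancer-testis genes called higher it was 8. The median of the called germ cell genes was thus not above that of tested genes with a promoter in the table. Only 60.2% of tested genes had one, so no conclusion is drawn for tested genes at large. The E-box CACGTG was found in 7 of the 18 (38.9%), the NRF1 motif TGCGCATGC in 4 (22.2%) and the E2F6 core GGCGGGAA in 4 (22.2%), beside 9.28%, 2.64% and 3.73% of the 14565 promoters of tested genes. A germ cell gene counted if any of its promoters held the motif, while the shares of tested genes count single promoters. The shares are therefore not directly comparable. Neither the CRE TGACGTCA nor the interferon element core was found in any of the 18. All of these motifs except the interferon element hold a CG, both strands were searched, and a match is a description of the letters only.

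Values are library-scaled read counts (CPM) on normalised library sizes. A gene was called where the edgeR quasi-likelihood test gave a Benjamini-Hochberg adjusted p under 0.05, and an SE is that of the log2 fold change, decitabine minus DMSO. Library totals ran from 18341505 to 21048978 counts in the 4 libraries, and 19123 of 55969 entries had enough reads to be tested. The log CPM of the DMSO libraries correlated at 0.969 across genes and that of the decitabine libraries at 0.978. T cell identity was in place. Cd3e (167 and 150 CPM in DMSO, 226 and 221 after decitabine), Thy1 (465 and 429, 532 and 622) and the pan-leukocyte Ptprc (2158 and 1885, 1900.2 and 1940.4) were abundant in every library. None of these passed the test, but Cd3g, given below, passed as higher. The DMSO libraries differed from each other in single genes. Cd4, the class II co-receptor, stood at 1.86 CPM in DMSO library 1 and 41.5 in library 2, against 34.6 and 29.2 after decitabine, so no direction can be read for it.

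More genes were higher than lower after decitabine. Of the genes tested, 2376 were higher (12.4%) and 822 were lower (4.3%), together 3198 (16.7%). The libraries of the 2 groups did not overlap for 58.8% of all genes tested, and for each of the 3198 called. Of the calls, 1950 of the higher and 266 of the lower genes had changed by more than 1 on the log2 scale, while the median over all genes tested was 0.04. Genes called higher made up 6.06% and 6.86% of all counts in DMSO and 13.5% and 15.2% after decitabine, and genes called lower fell from 12.2% and 11.7% to 7.04% and 6.42%. The counts depend on single libraries: without decitabine library 2 there were 1284 higher and 223 lower genes, and without DMSO library 1 there were 1443 and 472. Without decitabine library 1 there were 1854 and 501, and without DMSO library 2 there were 2276 and 941, so that the lower count grew. Counts of list members below are to be read against the shares over all genes tested, 12.4% higher and 4.3% lower, or against those over genes expressed in DMSO given next.

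Part of the excess of higher genes lies in genes that were silent in DMSO. No read was found in either DMSO library for 27990 entries, and 99 of them (0.354%) reached 1 CPM in both decitabine libraries. The reverse, 1 CPM or more in both DMSO libraries and no read after decitabine, was met by 0 of 13751. A gene that is silent in DMSO enters the test only through the drug libraries, where it must be high, so the share called among such genes carries no information. The 15412 genes with at least 0.534 CPM in both DMSO libraries, called expressed in DMSO below, are free of this: 7.97% were higher and 5.33% were lower. For this cutoff CPM were taken on library totals before normalisation. On the X chromosome 30 of 384 such genes were higher (7.81%), against 1150 of 13989 (8.22%) on the autosomes. The share lower grew with level in DMSO: 0.629% of genes at 1 to 5 CPM, 7.50% at 20 to 100 and 14.7% over 100. Lists of well expressed genes are to be read against these shares lower as well.

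**Figure D1:**
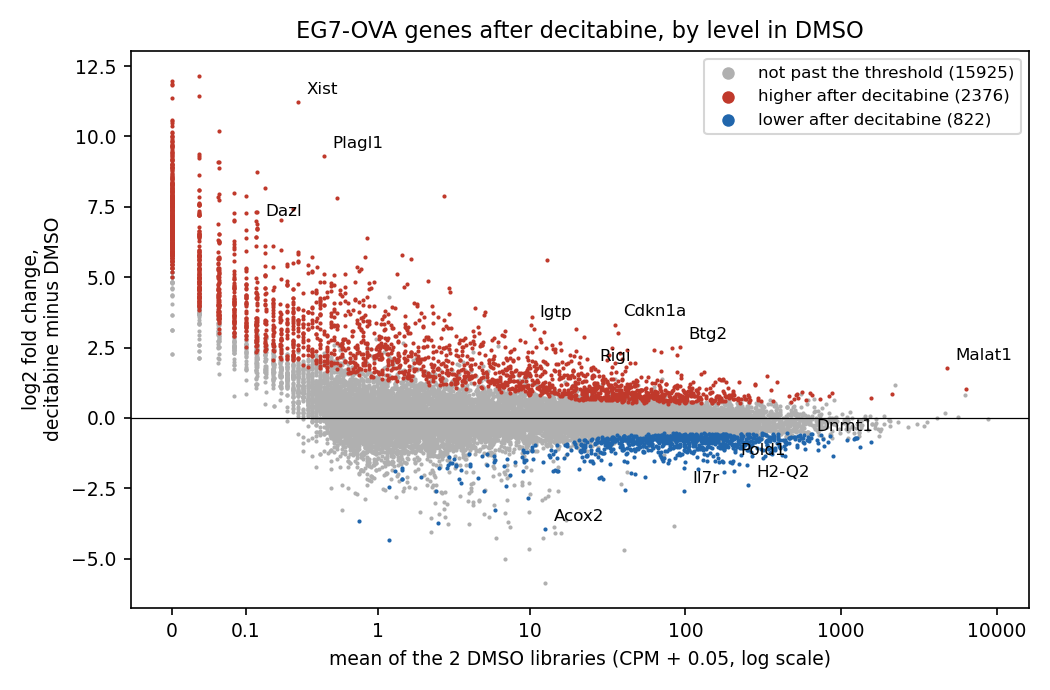
Each point is 1 of the 19123 genes tested, at its mean CPM in the 2 DMSO libraries (x axis, log scale with 0.05 added) and its log2 fold change, decitabine minus DMSO (y axis). Red points passed the test as higher (2376) and blue as lower (822); the largest rises start from genes at or near 0 in DMSO, and the falls lie mostly among genes with more than 20 CPM.

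Xist went from near silence to an abundant RNA of the cell. It stood at 0.251 and 0.299 CPM in DMSO and at 639 and 700 CPM after decitabine, a log2 fold change of 11.21 (SE 0.42, adjusted p 1.09e-06). The groups lie far apart, and both drug libraries are at the same height. The antisense gene Tsix had no read in DMSO and 0.561 and 0.765 CPM after decitabine (adjusted p 0.0548 without decitabine library 2); whether the counting used strand is not given in the sources used here, so reads of the pair cannot be told apart. The neighbouring non-coding genes Jpx (11.8 and 15.6 CPM, then 11.3 and 13.6) and Ftx (28.9 and 22.2, then 26.4 and 27.2) did not pass the test, and the X chromosome as a whole held 3.11% and 2.96% of counts in DMSO and 3.07% and 2.89% after decitabine.

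Some other genes with large rises are known from tissues far from a T cell. Cdh19, a cadherin, had 1 read in the DMSO libraries together and 116 and 172 CPM after decitabine, a ratio of 5714 with a 95% counting interval of 1025 to 225739. Col1a2, a chain of type I collagen, had no read in DMSO and 22.9 and 12.9 CPM after decitabine, at least 241-fold higher when DMSO is set to a floor of 3 reads over the group. Vmn2r96, whose RefSeq promoter above holds 1 CG, was at 10.6 and 10.4 CPM from no read, at least 140-fold higher. That window, like the one of Plagl1, lies inside the gene as GENCODE places it, so the start in use may be another. Cntn5, a neuronal adhesion protein, was at 2.96 and 11.1 CPM from no read, at least 91.7-fold higher. Esr2, the beta oestrogen receptor, was at 3.67 and 10.3 CPM from no read, at least 91.3-fold higher. Other large rises were not of this kind. Lsp1, a lymphocyte protein, was at 16.6 and 4.04 CPM from no read, at least 140-fold higher. Tmsb4x, an X-linked actin-binding peptide singled out after its values were seen, had 2 reads in DMSO and 48.5 and 13.4 CPM after decitabine, a ratio of 631 (95% counting interval 174 to 5219). The decitabine libraries lie well apart for Cntn5, Esr2, Lsp1 and Tmsb4x, while they agree closely for Vmn2r96.

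The drug's own target fell at the RNA level. Dnmt1 was at 637 and 585 CPM in DMSO and at 344 and 372 after decitabine, a log2 fold change of -0.77 (SE 0.16, adjusted p 0.00988), and Uhrf1, which brings DNMT1 to half-methylated DNA, went from 375 and 297 to 194 and 192 (-0.80, SE 0.20, adjusted p 0.0223). The de novo methyltransferase Dnmt3a rose from 241 and 263 to 444 and 436 CPM (log2 fold change 0.80, SE 0.19). Tet1, which oxidises methylcytosine, rose from 1.66 and 3.39 to 12.9 and 7.81 CPM (2.03, SE 0.44). These groups do not overlap, but each of the 4 calls rests on single libraries. Dnmt3b stood at 41.1 and 31.0 CPM and then at 30.5 and 30.7, and did not pass. In all, 3 of the 20 genes of the methylation machinery were higher and 3 lower, with a median of 0.14. The share higher is near the 12.4% of all genes, and the share lower compares with 4.3%. Of all genes at 20 to 100 CPM in DMSO 7.50% were lower, and of those over 100 CPM 14.7%. Without decitabine library 1 the adjusted p was 0.0696 for Dnmt1, 0.0891 for Uhrf1, 0.0659 for Dnmt3a and 0.0795 for Tet1. Without decitabine library 2 it was 0.0571 for Dnmt1, 0.125 for Uhrf1 and 0.0786 for Dnmt3a, and without DMSO library 1 it was 0.112 for Uhrf1, 0.0811 for Dnmt3a and 0.0529 for Tet1. In each of these 3 alternatives 1 gene of the list was higher and at most 1 lower.

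Genes that take up, activate or destroy the drug held few rises and some falls. Dck, the kinase that activates decitabine, stood at 57.6 and 55.2 CPM in DMSO and 43.7 and 43.9 after decitabine (adjusted p 0.165), and the transporter Slc29a1 at 182 and 174 and then 137 and 121 (adjusted p 0.0929). Cda, the deaminase that inactivates it, had no read in any of the 4 libraries. Among the tested genes of this list 2 of 26 were higher, beside 12.4% of all genes, and 4 lower, beside 4.3%. The share lower was 7.50% of all genes at 20 to 100 CPM in DMSO and 14.7% over 100 CPM. Samhd1, a deoxynucleotide hydrolase, rose from 0.553 and 0.598 to 4.33 and 2.19 CPM (log2 fold change 2.49, SE 0.50), and the thymidine kinase Tk1 from 23.6 and 31.2 to 39.9 and 50.8 (0.73, SE 0.21). The lower genes include Dctd (59.3 and 57.3 to 29.0 and 30.4 CPM), Dut (174 and 124 to 77.7 and 65.8) and Tyms (150 and 108 to 77.4 and 79.1), which supply thymidylate. The call of Samhd1 was lost without decitabine library 1 (adjusted p 0.0540), that of Dut without decitabine library 2 (0.0552), and that of Tyms without DMSO library 1 or either decitabine library (0.195, 0.0973 and 0.110). Without decitabine library 2 the list held 1 higher and 1 lower gene, without DMSO library 1 or decitabine library 1 it held 1 higher and 2 lower, and without DMSO library 2 it held 7 lower.

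Germ cell genes came on. Dazl went from 0.201 and 0.0498 CPM in DMSO to 12.8 and 18.0 after decitabine, a log2 fold change of 6.87 (SE 0.44, adjusted p 1.89e-05). Tuba3b had 2 reads in DMSO and 16.4 and 37.2 CPM after decitabine, a ratio of 528 (95% counting interval 146 to 4366). Its near-identical copy Tuba3a was at 1.22 and 4.26 CPM from no read, and reads of the pair may have been split between them. Tex19.1, a protein that guards the germ line against retrotransposons, rose from 0.352 and 2.99 to 61.9 and 105 CPM (5.63, SE 0.59), and Dpep3, a testis dipeptidase, was at least 73.1-fold higher at 3.77 and 7.32 CPM from no read. In each of these 5 genes the second decitabine library is the higher one, and this held for 21 of the 22 germ cell genes called, beside 67.0% of all genes called higher.

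Of 42 germ cell genes known for methylated promoters, 31 were tested and 22 were higher, none lower, with a median log2 fold change of 5.32, or 3.33 with the genes unread in DMSO set at their bound. Of the 31, however, 26 passed the filter only through drug libraries, so that count is a description; of the 5 expressed in DMSO, 3 were higher. Not every member moved: Ddx4, the germ cell helicase Vasa, stood at 0.402 and 0.598 CPM in DMSO and 0.357 and 0.820 after decitabine (adjusted p 0.843), and the meiotic genes Sycp3 and Mael had 7 and 8 reads over the decitabine libraries and were not tested. Counted over the whole list, 4 of the 17 members with no read in DMSO reached 1 CPM in both decitabine libraries (23.5%), beside the 0.354% of all entries.

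X-linked cancer-testis genes, a class named for being read in testis and tumours, followed the same course in part. Magea9 went from no read to 17.0 and 38.1 CPM, at least 362-fold higher (adjusted p 5.08e-05), and Magea13 from no read to 22.6 and 26.9 CPM, at least 329-fold. The Magea genes are near-identical copies, so the split of reads between them is uncertain. Nxf3, an mRNA export factor, had 3 reads in DMSO and 10.6 and 10.4 CPM after decitabine, and Tex13b had none and then 1.99 and 4.37 CPM. Of 46 listed genes 21 were tested and 13 were higher, but 13 of the 21 passed the filter only through drug libraries; 25 were not tested, and 10 had no read in either group. Without decitabine library 2 the number higher was 6, and without DMSO library 1 it was 8.

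The early embryo genes Dppa2 and Dppa4, which lie side by side on chromosome 16, rose together. Dppa4 went from 0.251 and 0.399 to 10.8 and 17.6 CPM (log2 fold change 5.42, SE 0.42) and Dppa2 from no read to 3.16 and 3.28 CPM, at least 42.9-fold. Of 22 pluripotency genes measured, 6 were tested and 5 were higher, with 16 too low to test. Of the 6, 3 passed the filter only through drug libraries, so the count is a description. Without DMSO library 1, as without decitabine library 1, 2 were higher, and without decitabine library 2 there were 3.

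Among imprinted genes, which are methylated on 1 parental copy, a few moved far and most did not. Plagl1 rose from 0.352 and 0.498 CPM to 317 and 229 (log2 fold change 9.30, SE 0.39, adjusted p 2.14e-06). The growth inhibitor Cdkn1c rose from 0.101 and 0.199 to 12.3 and 9.51 CPM (6.12, SE 0.64), and the non-coding H19 from 3 reads to 1.43 and 1.42 CPM, a ratio of 18.97 (95% counting interval 6.15 to 94.9) whose call was lost without DMSO library 1, without decitabine library 2 and with limma-voom (adjusted p 0.0918, 0.0642 and 0.101). Peg3 and Peg10 are paternally expressed. Peg3 reached 0.816 and 1.04 CPM from no read, a rise of at least 12.3-fold, and Peg10 reached 4.79 and 4.15 CPM from no read, a rise of at least 59.7-fold. Of 33 imprinted genes tested 10 were higher and none lower, with a median of 0.65 beside 0.04 over all genes; among the 21 expressed in DMSO 4 were higher. Without DMSO library 1, as without decitabine library 2, the number higher was 6.

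Peg10 also belongs to the genes that descend from retrotransposons. Pnma5 rose from 0.201 and 0.0498 to 8.72 and 18.9 CPM (log2 fold change 6.71, SE 0.62), and Rtl5 from 1 read to 0.357 and 1.86 CPM, a call lost without DMSO library 1 (adjusted p 0.0616) and without decitabine library 2 (0.1003). The deposited table counts genes by symbol, and transposon families themselves were not analysed here. Of 28 silencers of endogenous retroviruses 3 were higher, close to the 12.4% of all genes, and 5 lower, beside 4.3%. Of all genes at 20 to 100 CPM in DMSO 7.50% were lower, and of those over 100 CPM 14.7%. Atf7ip, the partner of the H3K9 methyltransferase SETDB1, rose from 161 and 185 to 447 and 445 CPM (1.36, SE 0.16, adjusted p 0.000518), and Zfp809, a zinc-finger protein that binds a retroviral primer site, from 26.9 and 24.6 to 51.9 and 52.2 (1.02, SE 0.17). Cbx5, heterochromatin protein HP1 alpha, fell from 1332 and 1104 to 769 and 678 CPM (-0.75, SE 0.18), and the chromatin assembly subunit Chaf1a from 145 and 119 to 76.7 and 77.3. The calls of Cbx5 and Chaf1a were lost without DMSO library 1, decitabine library 1 or decitabine library 2 (adjusted p 0.0651 to 0.170 for Cbx5 and 0.0792 to 0.113 for Chaf1a). At most 2 genes of the list were then lower.

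**Figure D2:**
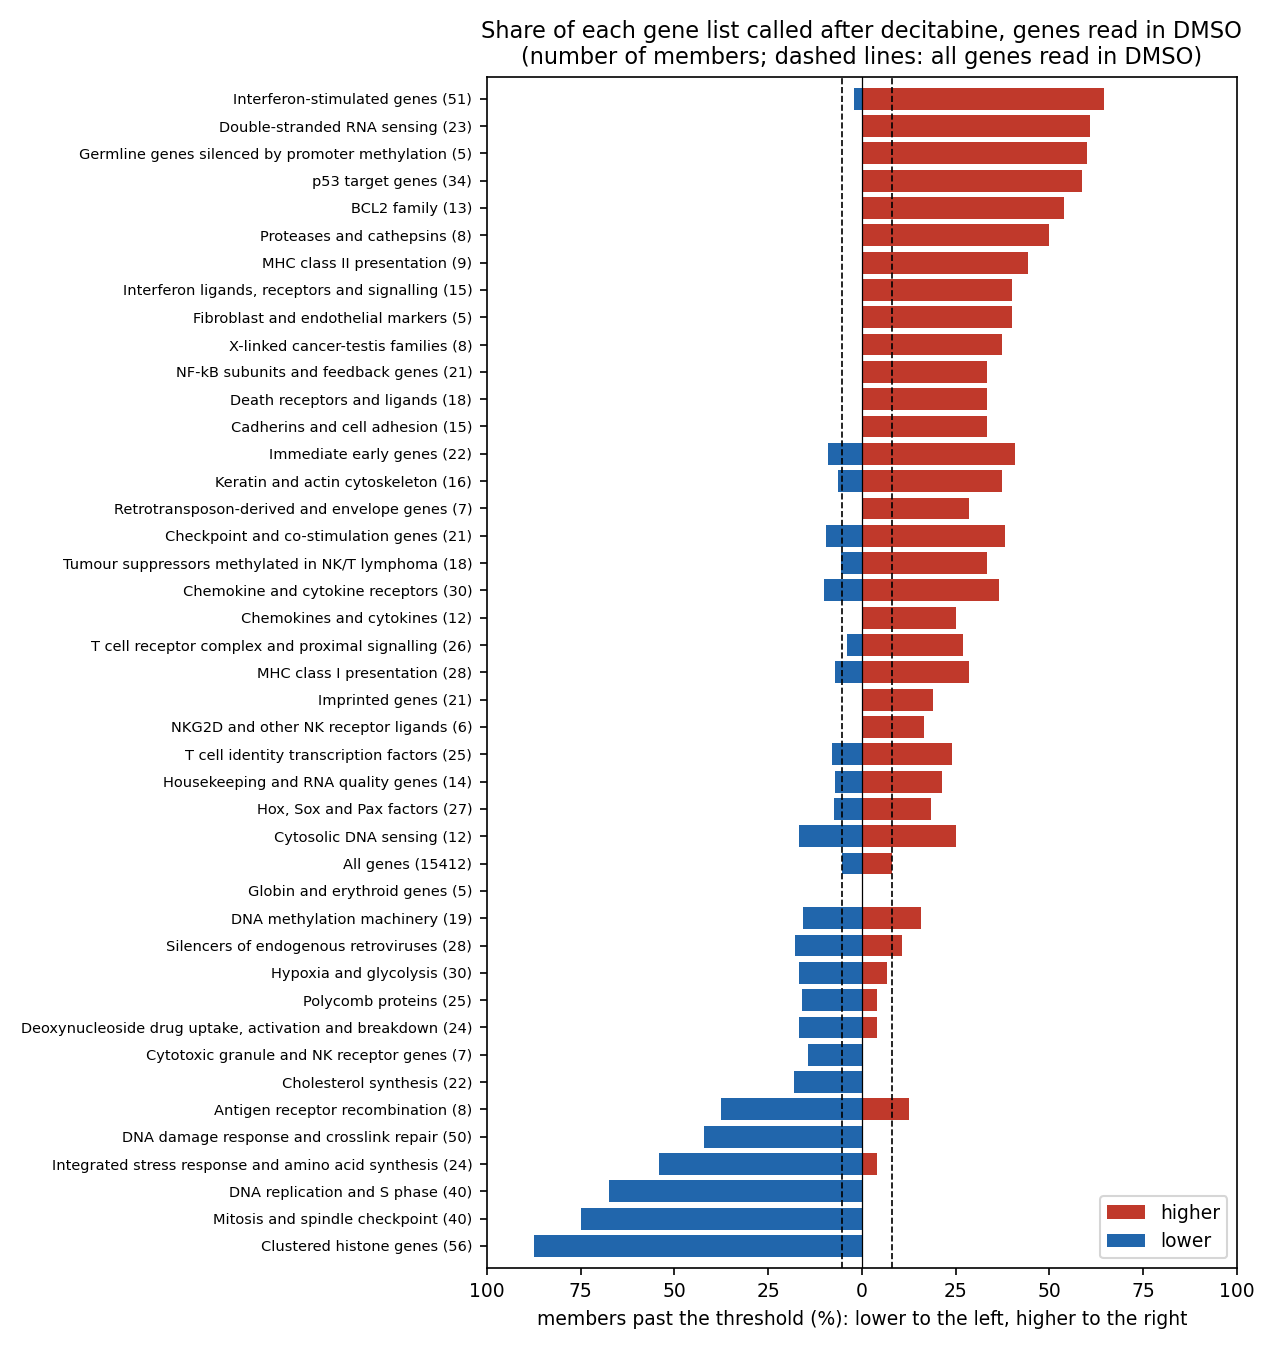
Bars give the share of each gene list that passed the test as higher (red, right) or lower (blue, left), counting only genes expressed in DMSO. These have at least 0.534 CPM in both DMSO libraries, on library totals before normalisation. The number of such members is in brackets and lists with under 5 are left out. Dashed lines mark all 15412 such genes (7.97% higher, 5.33% lower). Interferon-stimulated genes, RNA sensors, germ cell genes (only 5 members) and p53 targets reach furthest to the right, histone, mitosis and replication genes furthest to the left.

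Sensors of double-stranded RNA were higher after decitabine. Rigi, the sensor RIG-I, rose from 21.7 and 27.7 to 83.4 and 78.6 CPM, a log2 fold change of 1.72 (SE 0.19, adjusted p 0.000353). Ifih1, which encodes MDA5, rose from 0.704 and 1.40 to 6.42 and 2.62 CPM (2.10, SE 0.57, adjusted p 0.0318). Its call was lost without DMSO library 1 (adjusted p 0.149) and without decitabine library 1 (adjusted p 0.225). Zbp1, which detects left-handed double helices, rose from 1.11 and 1.50 to 17.4 and 21.5 CPM (3.90, SE 0.32), and Oas3, an oligoadenylate synthetase that activates RNase L, from 12.8 and 18.9 to 84.5 and 83.3 (2.41, SE 0.25). The adaptor Mavs was at 84.6 and 82.2 CPM in DMSO and 63.7 and 76.3 after decitabine (adjusted p 0.382). In this list 15 of 25 tested genes were higher and none lower, with a median of 1.10; of the 23 expressed in DMSO 14 were higher (60.9%, beside 7.97%). Without DMSO library 1 the number of the list higher was 9.

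Interferon signalling and its target genes were higher too. Irf1, a transcription factor that interferon induces, rose from 18.9 and 19.5 to 89.0 and 88.5 CPM (log2 fold change 2.21, SE 0.19, adjusted p 9.33e-05). Irf9 rose from 6.74 and 7.48 to 20.9 and 26.9 CPM, and Irf7 from 3.47 and 4.93 to 13.4 and 10.2. The type I ligand gene Ifnb1 had no read in any of the 4 libraries, which allows up to 3 reads over each group, and of 18 tested ligand, receptor and signalling genes 8 were higher and none lower, beside 12.4% and 4.3% of all genes (5 higher without decitabine library 2). Of the 15 expressed in DMSO 6 were higher. The call of Irf7 was lost without DMSO library 1 (adjusted p 0.0555) and without decitabine library 1 (0.0595).

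The interferon-inducible GTPases, which attack the vacuoles of intracellular pathogens, held large rises among the target genes. Igtp went from 9.15 and 11.01 to 80.6 and 116 CPM (log2 fold change 3.28, SE 0.23, adjusted p 2.97e-05), Gbp2 from 0.603 and 1.20 to 21.9 and 22.6 (4.62, SE 0.36) and Gbp4 from 5.53 and 8.12 to 52.5 and 63.6 (3.09, SE 0.25). Isg15, the ubiquitin-like modifier often used to read this response, stood at 1.11 and 0.748 CPM and then at 1.78 and 3.33, and did not pass (adjusted p 0.0688). Of 62 interferon-stimulated genes tested, 41 were higher and 1 lower, Lgals9, with a median of 1.49. Restricted to the 51 expressed in DMSO, 33 were higher (64.7%, beside 7.97%). With any 1 of the 4 libraries left out, between 31 and 42 were higher.

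**Figure D3:**
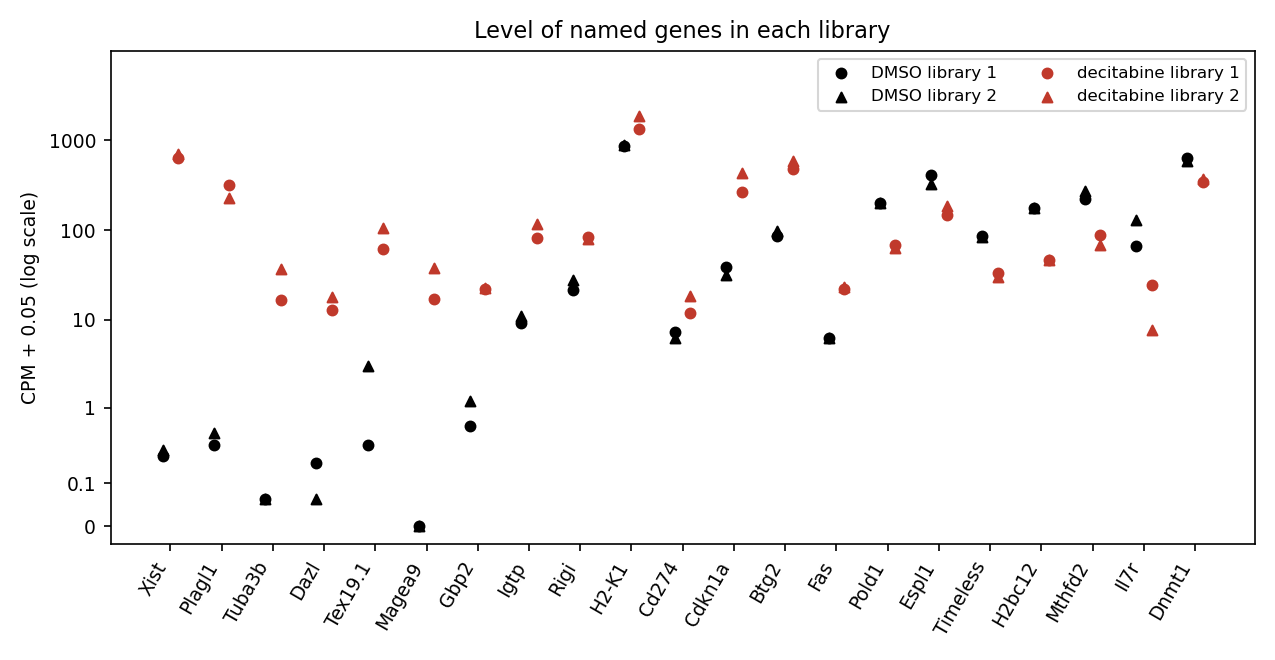
Each gene's level in CPM (log scale with 0.05 added) is shown for the 2 DMSO libraries (black) and the 2 decitabine libraries (red); circles are library 1 and triangles library 2 of a group. From Xist to Fas the red marks lie above the black, and from Pold1 to Dnmt1 below; all 21 were called, and the groups of every called gene are free of overlap, beside 58.8% of all genes tested.

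Antigen presentation moved in both directions within 1 family. The classical class I heavy chains H2-K1 (867 and 878 to 1340.5 and 1851 CPM, log2 fold change 0.87, SE 0.20, adjusted p 0.0164) and H2-D1 (853 and 823 to 1195 and 1646 CPM, 0.76, SE 0.20, adjusted p 0.0293) rose. Both calls were lost without decitabine library 2, with an adjusted p of 0.183 for H2-K1 and 0.273 for H2-D1, and without DMSO library 1 (0.0537 and 0.0761), and that of H2-D1 also without DMSO library 2 (0.0734). The non-classical H2-T23, ligand of the inhibitory NK receptor NKG2A, rose from 20.3 and 31.9 to 71.4 and 101 CPM (1.72, SE 0.26). H2-Q2 fell from 287 and 220 to 61.8 and 34.5 CPM (-2.39, SE 0.27, adjusted p 0.000375) and H2-Q1 from 56.5 and 38.9 to 12.8 and 10.9 (-2.01, SE 0.25); class I genes are close copies, so reads may have been shared among them. The light chain B2m was at 613 and 602 CPM and then 884 and 812, and did not pass (adjusted p 0.0767). In all 9 of 29 class I pathway genes were higher, beside 12.4% of all genes, and 2 lower, near the 4.3% of all genes; 5 were higher without DMSO library 1, and as many without decitabine library 2.

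Class II genes started low. Cd74, the invariant chain, rose from 4.52 and 4.24 to 65.6 and 66.2 CPM (log2 fold change 3.91, SE 0.26, adjusted p 2.75e-05), H2-Eb1 from 16.1 and 21.7 to 68.6 and 50.9 (1.66, SE 0.23), and the protease Ctss, which trims the invariant chain, from 1 read to 6.22 and 3.17 CPM. The list counted 6 higher genes of 12 tested and none lower; of the 9 expressed in DMSO 4 were higher, beside 7.97%.

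Among ligands and receptors that T and NK cells read, Cd274, the PD-1 ligand PD-L1, rose from 7.34 and 6.18 to 11.9 and 18.4 CPM (log2 fold change 1.16, SE 0.32, adjusted p 0.0323). Its call was lost without either DMSO library and without decitabine library 2 (adjusted p 0.0710, 0.105 and 0.247). Cd80, a ligand of CD28 and CTLA-4, rose from 10.5 and 8.12 to 62.9 and 57.7 CPM (2.70, SE 0.23, adjusted p 8.8e-05), and the checkpoint Vsir, known as VISTA, from 7.04 and 8.67 to 47.5 and 38.7 (2.46, SE 0.25). Lgals9, which encodes galectin-9, fell from 162 and 172 to 95.0 and 75.1 CPM (-0.97, SE 0.17). Of 27 tested genes 11 were higher and 2 lower, and of the 21 expressed in DMSO 8 were higher, beside 7.97%; leaving out DMSO library 1, decitabine library 1 or decitabine library 2 left 5, 6 and 4 higher. Clec2f and Clec2g, members of the family that NKR-P1 receptors bind, rose from 2 reads to 14.2 and 14.1 CPM and from 0.452 and 0.249 to 12.8 and 13.1 CPM.

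The cytokine genes that were called rose, while cytokine and chemokine receptors were called in both directions. Il17a rose from 0.804 and 0.299 to 11.3 and 7.81 CPM (log2 fold change 4.10, SE 0.57) and Il13 from 0.151 and 0.698 to 9.64 and 7.05 (4.27, SE 0.79). The beta chain Csf2rb, shared by the receptors for IL-3, IL-5 and GM-CSF, rose from 2.21 and 2.44 to 32.8 and 15.5 CPM (3.37, SE 0.45). Il7r, the IL-7 receptor, fell from 65.7 and 129 to 24.2 and 7.71 CPM (-2.61, SE 0.48, adjusted p 0.00541), and the chemokine receptor Cxcr4 from 227 and 190 to 100.1 and 109.5 (-0.99, SE 0.17). Of 22 cytokine genes tested 7 were higher and none lower, but 10 of the 22 passed the filter only through drug libraries; of the 12 expressed in DMSO 3 were higher, beside 7.97%. Of 37 receptors 13 were higher and 3 lower, and of the 30 expressed in DMSO 11 were higher and 3 lower, beside 7.97% and 5.33%. Without decitabine library 1 the cytokine count was 4 and the receptor count 7, and without DMSO library 1 the receptor count was 7. Nfkbiz, an inhibitor-like NF-kB protein, rose from 16.6 and 15.3 to 59.7 and 66.0 CPM (1.98, SE 0.18), 1 of 7 higher among 22 NF-kB genes (4 without DMSO library 1, and 4 without decitabine library 2).

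Targets of p53 rose while Trp53 itself did not pass the test. Cdkn1a, the cyclin-dependent kinase inhibitor p21, went from 38.7 and 31.4 to 267 and 430 CPM, a log2 fold change of 3.31 (SE 0.25, adjusted p 4.54e-05). Trp53inp1 rose from 67.3 and 71.6 to 334 and 368 CPM (2.34, SE 0.18), the antiproliferative Btg2 from 85.8 and 98.6 to 476 and 585 (2.52, SE 0.19), and Mdm2, the ligase that degrades p53, from 56.6 and 49.0 to 92.6 and 85.9 (0.76, SE 0.16). The kinase Plk2 had 1 read in DMSO and 9.02 and 16.3 CPM after decitabine. Trp53 stood at 145 and 131 CPM and then at 131 and 133 (adjusted p 0.853). Of 41 targets tested 26 were higher and none lower, with a median of 1.00; of the 34 expressed in DMSO 20 were higher (58.8%, beside 7.97%), and the list count lay between 20 and 26 with 1 library left out. The call of Mdm2 was lost without DMSO library 2 (adjusted p 0.0789).

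Death genes were among the risers. The receptor Fas went from 6.18 and 6.18 to 21.9 and 23.3 CPM (log2 fold change 1.87, SE 0.24), and the BH3-only genes Pmaip1 (2.97 and 4.09 to 17.6 and 11.8 CPM), Bbc3 (15.6 and 17.6 to 33.1 and 63.1) and Bmf (1.11 and 8.92 to 75.7 and 50.2) rose as well. The inflammatory caspases Casp1 (51.4 and 43.9 to 223 and 148 CPM, 1.96, SE 0.23) and Casp4 (41.8 and 40.3 to 172 and 90.5 CPM, 1.67, SE 0.27) rose. The list counts that follow stand beside 12.4% higher and 4.3% lower of all genes. Of the 18 death receptor and caspase genes expressed in DMSO 6 were higher, beside 7.97% of all such genes. Of 13 BCL2 family genes 7 were higher and none lower (3 without decitabine library 2, where Bbc3 had an adjusted p of 0.0533), and of 21 death receptor and caspase genes 7 were higher and none lower.

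Lists of cell cycle genes held many of the falls. Clustered histone genes, chosen for description after their values were seen, held the most lower genes of the lists described here: 49 of 57 tested were lower and none higher, with a median of -1.29, beside 4.3% of all genes. Their summed level was 9440 and 9303 CPM in DMSO and 3870 and 4163 after decitabine. H2bc12 fell from 178 and 175 to 46.9 and 46.2 CPM (log2 fold change -1.92, SE 0.16, adjusted p 6.87e-05), and the linker histone H1f5 from 943 and 820 to 343 and 348 (-1.35, SE 0.17). H1f0, the linker histone outside the clusters, moved the other way, from 68.0 and 75.3 to 111 and 116 CPM (0.66, SE 0.18, adjusted p 0.0284), a call that was lost when any of the 4 libraries was left out (adjusted p 0.0622 to 0.155). Histone genes are close copies whose mRNAs mostly lack a poly(A) tail; how the libraries were selected for poly(A) is not given in the sources used here. As in any bulk sample, fewer cells in S phase and less histone RNA per cell cannot be told apart.

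Replication genes fell with them. Pold1, the catalytic subunit of DNA polymerase delta, went from 199 and 198 to 67.9 and 63.4 CPM (log2 fold change -1.60, SE 0.21, adjusted p 0.000897), Pole from 308 and 271 to 149.8 and 124 (-1.08, SE 0.17) and the origin kinase Cdc7 from 102 and 95.6 to 53.02 and 42.8 (-1.05, SE 0.17). Of 40 replication genes 27 were lower and none higher, with a median of -0.79. The shares lower of this list and the next stand beside 4.3% of all genes. By level in DMSO, 7.50% of all genes at 20 to 100 CPM were lower, and 14.7% of those over 100 CPM. Mitosis genes were alike in number, 30 lower and none higher of 40 (median -0.76), among them Espl1, the separase (407 and 328 to 147 and 183 CPM), Prc1 (110 and 99.8 to 49.9 and 45.0) and Kif2c (132 and 125 to 67.4 and 49.7). These calls depend on having both libraries: 8 replication and 4 mitosis genes were lower without decitabine library 2, and 11 and 6 without DMSO library 1, while with any 1 library left out between 42 and 47 histone genes were lower.

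Some genes of DNA repair fell as well. Timeless, a replication fork protein, went from 86.7 and 84.8 to 33.1 and 30.2 CPM (log2 fold change -1.44, SE 0.18, adjusted p 0.000654), Tdp1, which removes trapped proteins from DNA ends, from 72.7 and 75.9 to 33.9 and 32.0 (-1.17, SE 0.17), and Bard1, the BRCA1 partner, from 110 and 106 to 53.9 and 40.4 (-1.20, SE 0.19). In this list 21 of 50 were lower, beside 4.3% of all genes, 29 did not pass and none was higher, with a median of -0.58; without decitabine library 2 there were 8, and without DMSO library 1 there were 10. Lig4, the ligase of end joining, fell from 100.3 and 99.3 to 38.6 and 28.6 CPM (-1.57, SE 0.19, adjusted p 0.000595).

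Falls were also found among genes of the integrated stress response and amino acid synthesis. Mthfd2, the mitochondrial folate enzyme, went from 224 and 272 to 89.2 and 68.1 CPM (log2 fold change -1.66, SE 0.24, adjusted p 0.00152), Shmt2, which makes glycine from serine, from 303 and 325 to 124 and 109.8 (-1.42, SE 0.20), and Psph, the last enzyme of serine synthesis, from 40.8 and 39.3 to 12.9 and 14.8 (-1.53, SE 0.23). Chac1, a glutathione-degrading target of ATF4, fell from 25.9 and 55.2 to 5.96 and 7.71 CPM (-2.57, SE 0.43). Of the 28 tested genes of this list 13 were lower, beside 4.3% of all genes, 2 were higher and 13 did not pass, with a median of -0.70. Cholesterol genes had 4 of 22 lower, among them Lss (90.1 and 83.2 to 49.8 and 46.5 CPM). Of 31 hypoxia and glycolysis genes 5 were lower, beside 4.3% of all genes, and 2 higher, below the 12.4% of all genes. Both shares lower are also to be read beside 7.50% of all genes at 20 to 100 CPM in DMSO and 14.7% over 100 CPM. With decitabine library 2 left out these lists held 1 and 2 lower genes; hypoxia also held 2 without DMSO library 1 or decitabine library 1. Neither of its 2 higher genes passed without DMSO library 1 or without decitabine library 2.

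**Figure D4:**
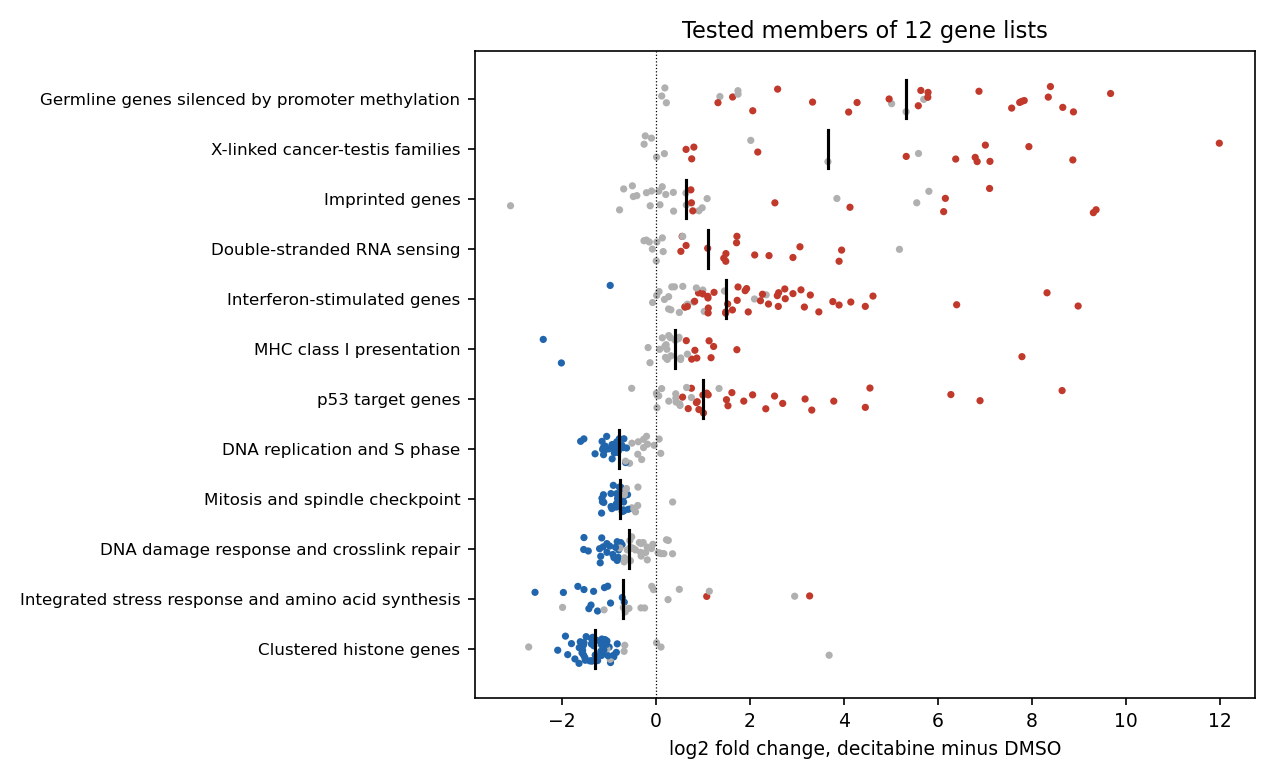
Each point is a tested gene of the list named on the left, at its log2 fold change, decitabine minus DMSO (x axis); red passed the test as higher, blue as lower, grey did not pass, and black bars are medians. The medians run from 5.32 for germ cell genes (3.33 with unread genes at their bound) to -1.29 for histone genes.

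Genes of T cell identity moved individually. Zbtb7b, the CD4 lineage factor ThPOK, rose from 12.4 and 16.6 to 74.7 and 85.3 CPM (log2 fold change 2.46, SE 0.25, adjusted p 0.000208). Myb, a factor of immature thymocytes, fell from 218 and 197 to 114 and 103 CPM (-0.93, SE 0.16). Of the receptor complex, Cd3g rose from 113 and 105 to 215 and 215 CPM (0.98, SE 0.15) and the adaptor Skap1 fell from 127 and 134 to 65.5 and 58.9 (-1.07, SE 0.16). Counted by list, 7 of 32 factors were higher and 2 lower, and 7 of 27 receptor genes were higher and 1 lower, beside 12.4% and 4.3% of all genes, so that the shares lower are near those of all genes. Without decitabine library 2 there were 4 higher factors and 1 lower, and without DMSO library 1 there were 4 higher receptor genes and 3 lower, with 4 lower factors. Jun, a subunit of AP-1, rose from 4.12 and 4.49 to 18.8 and 46.0 CPM (2.91, SE 0.38). Of 25 immediate early genes 10 were higher and 2 lower, beside 12.4% and 4.3% of all genes. The number higher was smaller without decitabine library 2 or DMSO library 1, and larger without decitabine library 1. The number lower also depended on single libraries.

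The largest falls by fold rest in part on the second DMSO library. Acox2, a peroxisomal oxidase, was at 4.27 and 20.7 CPM in DMSO and at 0.714 and 0.874 after decitabine (log2 fold change -3.96, SE 0.69, adjusted p 0.00388). Cox6a2, a muscle subunit of cytochrome oxidase, was at 1.71 and 10.2 and then at 0.612 and 0.601 (-3.28, SE 0.74), a call lost with limma-voom (adjusted p 0.0796) and when DMSO library 2 or either decitabine library was left out (adjusted p 0.0787 to 0.105). Slc5a9, a sugar transporter, showed a steadier fall, from 42.1 and 67.6 to 14.3 and 11.5 CPM (-2.08, SE 0.28, adjusted p 0.000878).

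Markers of other cell types were low, and some of them rose. The macrophage and monocyte list summed to 27.2 and 29.8 CPM in DMSO and 76.7 and 60.3 after decitabine, and 6 of 11 tested members were higher, 3 without DMSO library 1. Of the 11, 7 passed the filter only through drug libraries, and of the 4 expressed in DMSO 2 were higher. Spi1, the factor PU.1, went from 7 reads to 10.1 and 4.86 CPM, and Cd68 from 5.63 and 5.88 to 28.4 and 20.9, while the complement genes C1qa, C1qb and C1qc and the scavenger receptor Msr1 had no read in either group and Csf1r did not pass. B cell markers had 10 tested members, none called (3 higher without DMSO library 2), and no neutrophil marker was tested, with sums of 0.653 and 0.797 CPM in DMSO and 0.816 and 1.37 after decitabine. Of 7 fibroblast and endothelial markers tested 4 were higher, with 2 of the 5 expressed in DMSO, and Col3a1, Dcn and Kdr were at no read in both groups. The part of these marker genes in the rises of class II and cytokine genes was not tested. The long non-coding Malat1 rose from 4871 and 4680 to 14322 and 17915 CPM (log2 fold change 1.75, SE 0.24), and the mitochondrial share of counts was 0.969% and 1.08% in DMSO and 2.61% and 1.21% after decitabine; the part of RNA composition in the results was not tested.

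Azacytidine, the ribonucleoside analogue of decitabine, was given at a different dose, and both drugs were set against the same DMSO libraries, so their values are placed side by side only. In the azacytidine libraries Dazl was at 41.5 and 42.4 CPM, Tuba3b at 81.4 and 71.9, Xist at 629 and 1092, Igtp at 60.4 and 58.4 and Pold1 at 112 and 71.6. A direct comparison of decitabine with azacytidine by edgeR called no gene (0% of those tested), with 1218 genes at an unadjusted p under 0.05 and a smallest adjusted p of 0.0945. DESeq2 called 172 genes in that comparison, and limma-voom 0. For Dazl the difference was -1.44 (SE 0.27, adjusted p 0.159) and for Igtp 0.73 (SE 0.21, adjusted p 0.391), so that neither a difference nor its absence is shown.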

How the data were processed

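RNA sequencing of total RNA, taken with Trizol per the labels' protocols, gave 1 table of counts per gene symbol for the 6 EG7-OVA libraries; the authors deposited these counts without normalisation. The submitters' processing notes name fastp, Trim Galore, STAR and featureCounts and the builds mm10 and GRCh38, with no versions. In 62 of 55969 entries some deposited values were not whole (145 values), as in expected counts, and they were rounded. Libraries were grouped by treatment label and their columns matched by library name. The DMSO libraries are numbered differently in the sample titles and in the library names; the library names were used.

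Totals were 15690749 to 21048978 counts, and intervals and floors cover counting error only. edgeR 4.0.16 (R 4.3.3) filtered genes by filterByExpr, scaled by TMM and fitted all 6 libraries as 3 groups with its quasi-likelihood test, so that the groups share 1 estimate of the spread; p-values were adjusted over all genes tested (Benjamini-Hochberg). CPM use TMM-scaled sizes. Folds against a group without reads use a floor of 3 reads over the group, and ratios against 1 to 3 reads an exact 95% interval. The fit was tested on simulated data. It called 29 of 100 genes changed by 1 on the log2 scale, 73 of 100 changed by 2, and 6 unchanged genes. The changed genes were few among the 19123 simulated, and all had a mean over 1 CPM. In the data 16.7% of genes were called, so the simulated shares do not give the sensitivity of this comparison. Alternatives were other scaling, DESeq2 1.42.0, limma-voom (limma 3.58.1), other filters, thresholds, sets of libraries and a replicate block. The members and lists were chosen with earlier results of these data known. Named genes are, in each direction, at most 12 of greatest change (at least 5 CPM, no overlap, no predicted models), from every list at most 4 by smallest p, fixed genes, and at most 10 without a read in 1 group; those chosen after their values were seen are marked or are Tsix, Jpx, Ftx, Tmsb4x, Tk1, Trp53, H1f5, H1f0, Slc25a31 Csf1r and the marker genes named at no read. Chromosomes come from GENCODE vM21 by symbol, and promoters from RefSeq (GRCm38.p6). Only 60.2% of tested genes had a promoter there, so the planned comparison of calls by promoter CpG count was void and is not reported.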

Additional observations from a re-analysis of the deposited data

How the results depend on the processing

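The number of genes higher, 2376 as reported, became 1197 at an adjusted p of 0.01 and lay between 1284 and 2276 with 1 library left out; scaling by size factors, DESeq2, limma-voom, both other filters, only the 4 libraries compared and a change above 1 kept it within 1.5 times. The number lower, 822, became 1338 with DESeq2, 266 with a change above 1 and 216 at an adjusted p of 0.01, and lay between 223 and 941 with 1 library left out. DESeq2 put 64.6% of its calls on the higher side, the reported fit 74.3%. Decitabine against azacytidine, with 0 genes as reported, gave 172 with DESeq2 and 378 with no filter, and between 0 and 3 with 1 library left out. Where a group was left with 1 library, that library was assumed to vary like the others.

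Library numbers paired no samples by the labels, and whether libraries were handled in pairs is not stated. Deviations of same-numbered libraries correlated at -0.191 for DMSO and decitabine, -0.257 for DMSO and azacytidine, and 0.273 for azacytidine and decitabine. With a replicate block 2228 genes were higher, 726 lower and 0 differed between the drugs; with the numbers crossed, an alternative chosen after seeing the data, the counts were 2854, 1068 and 167. Of 202 named genes called, 157 to 182 kept their call with 1 library left out, and none that was called changed sign in any alternative. Among genes not called, the sign changed without DMSO library 1 for Ddx4 (-0.05), Cd4 (-0.39) and Ptprc (0.012), without DMSO library 2 for Jpx (0.042) and Ftx (-0.14), and without decitabine library 2 for Ddx4 (-0.48). With 1 library left out, log2 fold changes ran from -0.48 to 0.70 for Ddx4, -0.39 to 4.06 for Cd4, -0.20 to 0.012 for Ptprc, -0.34 to 0.042 for Jpx and -0.14 to 0.25 for Ftx. Other settings for promoter CpG counts were not run, since that comparison was void. With 2 libraries a group, small changes were not detectable: the median SE over genes tested was 0.34 on the log2 scale.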

Other observations

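Several gene groups outside the main themes also held changes. Among 35 tested Hox, Sox and Pax factors, which pattern the embryo, 8 were higher and 2 lower, beside 12.4% and 4.3% of all genes tested. Without decitabine library 2 there were 3 higher, and without DMSO library 1 there were 5. Hoxb8 rose from 0.452 and 0.349 CPM in DMSO to 5.81 and 7.98 after decitabine (log2 fold change 4.08, SE 0.41), and its neighbour Hoxb7 from 0.804 and 0.449 to 3.21 and 3.83 (2.48, SE 0.44). Of 24 cytoskeleton genes 9 were higher and 1 lower, and of the 16 expressed in DMSO, at 0.534 CPM or more in both libraries, 6 were higher, beside 7.97% of all such genes. Lmna, the nuclear lamin A gene, rose from 3.77 and 4.93 to 17.4 and 36.7 CPM (2.63, SE 0.35), and the neuronal tubulin Tubb3 from 3.02 and 2.94 to 17.8 and 18.4 (2.60, SE 0.35). Of 24 adhesion genes 8 were higher and none lower (5 of the 15 expressed in DMSO), 4 without any of DMSO library 1, decitabine library 1 or decitabine library 2. Itgb7, an integrin of gut-homing lymphocytes, rose from 6.33 and 8.37 to 38.7 and 24.9 CPM (2.11, SE 0.34). Of 15 proteases 6 were higher and none lower (4 of the 8 expressed in DMSO), among them the lysosomal Ctsl, from 18.0 and 32.6 to 72.9 and 103 CPM (1.80, SE 0.28).

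Polycomb proteins, which silence genes through histone marks, had 2 of 26 higher, below the 12.4% of all genes, and 4 lower, beside 4.3% (1 higher and 1 lower without decitabine library 2, 2 lower without DMSO library 1). The share lower of all genes was 7.50% at 20 to 100 CPM in DMSO and 14.7% over 100 CPM. Bcor rose from 137 and 109 to 249.7 and 269 CPM (log2 fold change 1.08, SE 0.18), and Phf19, a PRC2 subunit, fell from 176 and 178 to 79.8 and 85.4 (-1.10, SE 0.19). Of 14 tested DNA sensing genes 5 were higher and 2 lower, beside 12.4% and 4.3% of all genes. With either DMSO library left out 3 were higher, and with decitabine library 1 left out there were 2. The number lower was 1 with DMSO library 1 or either decitabine library left out. Rnaseh2a, which removes ribonucleotides from DNA, fell from 50.3 and 51.0 to 25.2 and 24.5 CPM (-1.02, SE 0.19). Among tumour suppressors known to be methylated in NK/T cell lymphoma, 7 of 19 were higher and 1 lower, beside 12.4% and 4.3% of all genes, with 4 higher without DMSO library 2 and 2 without decitabine library 2. Foxo3, a growth-restraining transcription factor, rose from 105 and 114 to 196 and 261 CPM (1.06, SE 0.18).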
